A study of Zea mays with 4 samples.

Results

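In the Puma maize hybrid, 205 of 39179 genes had at least 20 FPKM in both libraries of the female inflorescence (FI) and, in replicate 1 of the stem's top internode (TI), at most 5% of the lower FI value. FPKM is the number of fragments per kilobase of transcript and per 1000000 mapped fragments, so it can be compared between genes. Both tissues came from greenhouse plants at 60 days after sowing (DAS), at reproductive stage R1 and before pollination, with ears bagged before the silks emerged. There were 2 libraries of FI and 2 of TI, which the study calls biological replicates; the labels do not say that they come from separate plants, so the spread between them may be technical. The rule used both FI libraries and TI replicate 1. TI replicate 2 was not used to choose the genes and is described apart.

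The maize ear bears rows of paired spikelets, and at the unpollinated R1 stage its florets hold mature ovules and receptive silks. The identity of floral organs is set in plants by MADS-box transcription factors that act in combination, while growth of the young organs needs DNA synthesis, new cell wall and a cuticle. The top internode is a stem segment that carries sugars between leaves and inflorescences. The genes described here are those whose RNA was plentiful in FI and nearly missing from one library of TI.

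The name "nearly restricted to the inflorescence" held for TI replicate 1 only. In TI replicate 2 all 205 genes were detected, the lowest at 5.12 FPKM, and with that library in the place of TI replicate 1 the rule found 0 genes. The genes are therefore called the FI-high genes below. Their FPKM summed to 17499 in FI replicate 1 and 14671 in FI replicate 2, against 180 in TI replicate 1 and 7040 in TI replicate 2. They made up 4.68% and 4.24% of all FPKM in the FI libraries, against 0.0495% in TI replicate 1 and 2.01% in the other TI library.

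The median gene had 47.6 and 39.8 FPKM in FI, against 0.409 FPKM in TI replicate 1 and 20.7 FPKM in TI replicate 2. Both FI libraries and TI replicate 1 are fixed in part by the rule. TI replicate 2 was not, and it lay below both FI libraries in 205 of 205 genes. Among all 4022 genes with at least 20 FPKM in both FI libraries, 47.2% had TI replicate 2 below both. TI replicate 2 was also above TI replicate 1 in all 205 genes. The rule kept TI replicate 1 low, so that count was nearly fixed by the choice of genes.

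**Figure D1:**
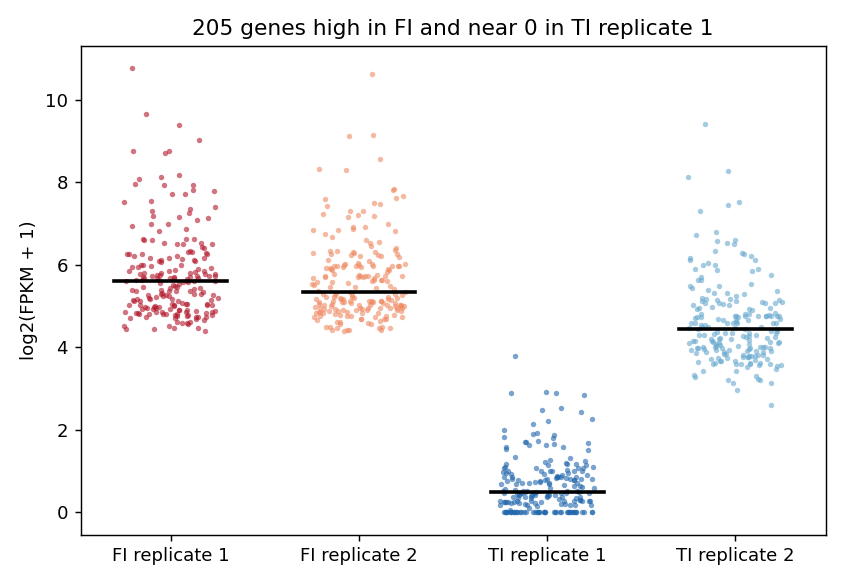
Expression of the 205 FI-high genes as log2(FPKM + 1), 1 point per gene, in FI replicate 1, FI replicate 2, TI replicate 1 and TI replicate 2, with a bar at the median. The 2 FI libraries lie highest, TI replicate 1 lies near 0, and TI replicate 2 lies between them with no gene at 0.

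Depth was low. Whole fragments recovered from the FPKM values came to 3876892 and 3381101 in FI, against 2919956 and 2373386 in TI. They are the smallest numbers possible for each gene, so these sums may be too low. Total counts in the count table came to 2431447 and 2072230 in FI, against 1817889 and 1455729 in TI. The tissue labels were compared with marker genes in the count table. The 13 inflorescence markers found there summed to 1035 and 888 counts per 1000000 counts of the library (CPM) in FI, against 66.0 CPM in TI replicate 1 and 461 CPM in TI replicate 2, and 6 green tissue markers to 130 and 82.5 CPM in FI, against 587 CPM in TI replicate 1 and 189 CPM in TI replicate 2. The green tissue sum rested mostly on ssu1, with 434 CPM in TI replicate 1 and 137 CPM in TI replicate 2. A pep1 gene, GRMZM5G899080, went the other way, with 18 and 24 counts in FI, against 1 and 3 counts in TI. Of the 13 inflorescence markers, 0 had no count in either FI library, against 6 in TI replicate 1 and 1, zmm2, in TI replicate 2. The 3 secondary wall markers chosen for the internode summed to 57.6 and 57.9 CPM in FI, against 33.6 and 46.0 CPM in TI, and thus did not set TI apart. In the sums of both marker groups that differed between tissues, TI replicate 2 lay between FI and TI replicate 1, as it did for the FI-high genes. The part of inflorescence RNA in that library in the results was not tested, and in bulk tissue fewer cells of a type and less RNA per cell cannot be told apart.

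The FI-high genes were unequal in level. The 10 highest carried 32.96% of their summed FPKM in FI replicate 1 and 30.9% in FI replicate 2, against 21.5% in TI replicate 1 and 30.9% in TI replicate 2. In mean FI FPKM, 31 genes were at 100 or more, 53 between 50 and 100 and 121 under 50. In TI replicate 1, 46 genes were at 0 and 118 rested on 3 fragments or fewer, so that for most of them the level in that library is at the limit of detection.

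The highest gene was Zm00001d043049, with 1736 and 1562 FPKM in FI, against 3.80 FPKM in TI replicate 1 and 682 FPKM in TI replicate 2. The gene next to it in rank, Zm00001d010840, had 807 and 561 FPKM in FI, against 6.16 and 276 FPKM in TI. For Zm00001d023345 the values were 520 and 551 FPKM in FI, against 0 and 309 FPKM in TI. These 3 genes have no name or description in the sources used here, and each had its only low value in TI replicate 1.

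Zm00001d014617 had 666 FPKM in FI replicate 1 and 315 FPKM in FI replicate 2, against 12.9 and 172 FPKM in TI. It was the gene with the highest level in TI replicate 1 among the 205. The other 6 of the 10 highest genes, Zm00001d035561, Zm00001d038891, ctb1, Zm00001d031636, Zm00001d003379 and Zm00001d030314, had between 191 and 429 FPKM in FI, between 0.590 and 6.47 FPKM in TI replicate 1 and between 90.6 and 181 FPKM in TI replicate 2. Only ctb1 among the 10 is annotated in the sources used here.

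Of the 205 genes, 23 stand in the study's table of differential genes, and 182 do not. The share of all genes that this table holds was not worked out, so 23 is not read as few or many. The table gives a name or description for 19 of the 23, and the other members are known here by identifier only. It was made from the same 4 libraries, so its genes are a selected part. All 23 were higher in FI replicate 1 than in FI replicate 2, against 109 of the other 182, and their median level in TI replicate 2 was 38.4% of FI replicate 2, against 49.2% for the others. What follows on named genes therefore does not describe the typical FI-high gene. In FPKM the 23 ranged from 20.2 to 429 in FI replicate 1 and from 20.2 to 223 in FI replicate 2, against 0 to 6.47 in TI replicate 1 and 5.12 to 95.7 in TI replicate 2.

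Among transcription factors, Zm00001d021057 was present, a MADS-box gene of the SEPALLATA type that the study names zmm7. SEPALLATA proteins are partners in the complexes that specify floral organs. It had 90.9 and 61.8 FPKM in FI, against 1.00 FPKM in TI replicate 1 and 26.6 FPKM in TI replicate 2. In the count table it had 531 and 305 counts in FI, against 5 and 98 counts in TI. The gene table of RefSeq lists it as MADS4 and gives the alias zmm7 to another gene, so the name is uncertain.

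Several annotated genes belong to the cell wall and the plant surface. expa3 (Zm00001d025018), an alpha-expansin, a class of proteins that loosen the wall during growth, had 40.9 and 26.4 FPKM in FI, against 0 and 8.28 FPKM in TI. gl2 (Zm00001d002353), or glossy2, takes part in making the cuticular wax of maize seedlings and had 34.9 and 29.9 FPKM in FI, against 0.228 and 10.4 FPKM in TI. Both were lowest in TI replicate 1, and TI replicate 2 stayed below both FI libraries.

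The lipid transfer proteins, small secreted proteins that bind lipids, were represented by csu337 (Zm00001d005146, similar to PVR3) and Zm00001d027290 (similar to a 14 kDa proline-rich protein of carrot). csu337 had 56.2 and 41.6 FPKM in FI, against 0 and 5.12 FPKM in TI. Zm00001d027290 had 287 FPKM in FI replicate 1 and 79.3 FPKM in FI replicate 2, against 2.03 and 33.1 FPKM in TI. The second gene thus differed 3.63-fold between the FI libraries in FPKM, the widest gap among the 205. The count table, where the gene linked to it had few counts, did not show this gap. Zm00001d027411, described as a peroxidase, had 116 and 80.3 FPKM in FI, against 2.14 and 37.2 FPKM in TI.

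ctb1 (Zm00001d025753), an endochitinase B, belongs to enzymes that cut chitin and are known from defence and seeds. It had 429 and 223 FPKM in FI, against 3.38 and 95.7 FPKM in TI, and 331 and 125 counts in FI, against 1 and 60 counts in TI. Both tables placed FI replicate 1 well above FI replicate 2 for this gene.

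In sugar transport and metabolism, sweet15b (Zm00001d016590), of the SWEET family of sugar exporters, had 36.2 and 33.5 FPKM in FI, against 0 and 10.6 FPKM in TI. Its counts were low, with 18 and 28 in FI, against 0 and 7 in TI. lpa1 (Zm00001d028180), a myo-inositol-1-phosphate synthase that catalyses the first step from glucose 6-phosphate to inositol, had 76.3 and 35.5 FPKM in FI, against 0.535 and 17.7 FPKM in TI. For lpa1 the level in TI replicate 2 was 23.2% of FI replicate 1 but 49.96% of FI replicate 2.

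A pair of genes described as similar to the O-methyltransferase ZRP4, enzymes that methylate phenolic compounds, were members. Zm00001d053156 had 32.3 and 21.4 FPKM in FI, against 0.608 and 8.76 FPKM in TI, and Zm00001d004687 had 89.0 and 32.6 FPKM in FI, against 0.304 and 17.3 FPKM in TI. The link of the second gene to the count table is doubtful. The version 3 gene given for it had 2724 and 1966 counts in FI, against 159 and 836 counts in TI, and RefSeq calls it hsbp1.

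Of the genes with other descriptions, Zm00001d045685, of the gibberellin-regulated GASA family of small secreted peptides, had 97.9 and 63.5 FPKM in FI, against 0.280 and 23.1 FPKM in TI. meg4 (Zm00001d019541), of the maize family of maternally expressed genes, had 23.0 and 21.3 FPKM in FI, against 0 and 6.78 FPKM in TI. mde1 (Zm00001d003945), described as binding metal ions, had 50.3 and 38.1 FPKM in FI, against 1.83 and 17.3 FPKM in TI. umc2270 (Zm00001d043196), described as a methyladenine glycosylase, a type of DNA repair enzyme, had the order shared by all of them. Its values were 56.3 and 24.0 FPKM in FI, against 0.993 and 12.5 FPKM in TI.

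**Figure D2:**
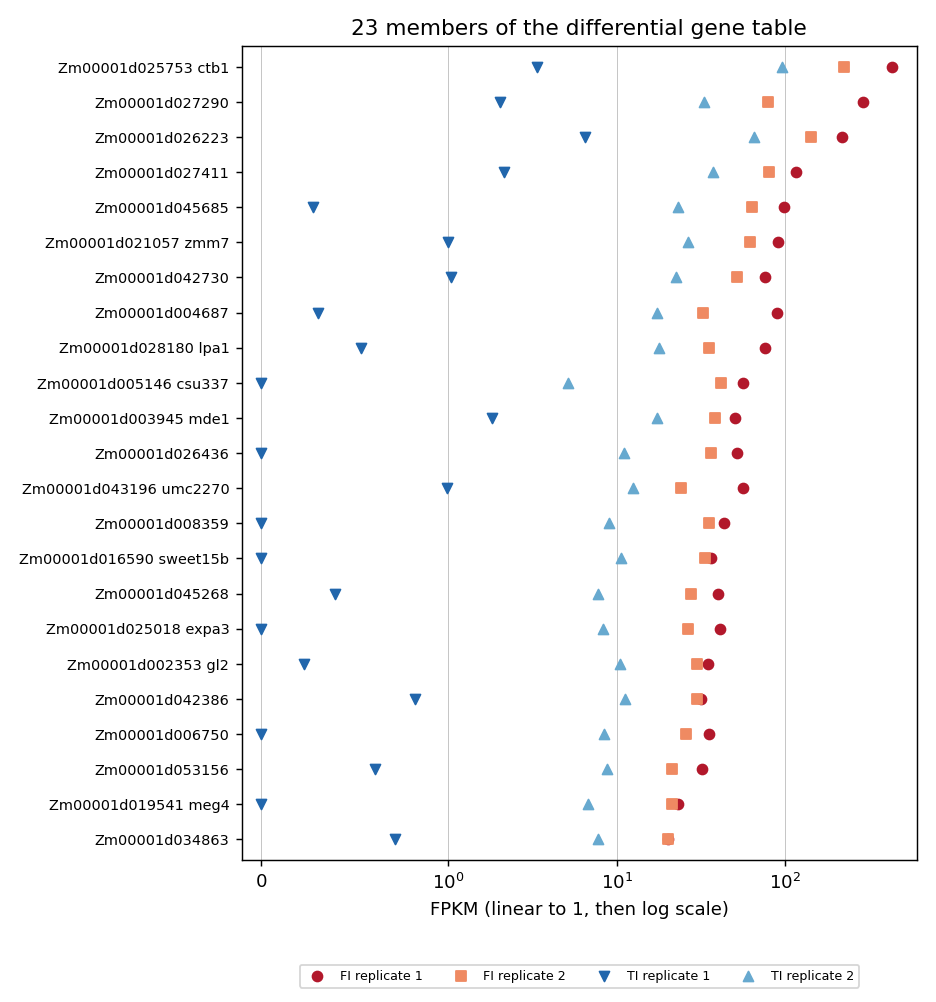
FPKM of the 23 FI-high genes that stand in the study's table of differential genes, on an axis that is linear up to 1 and logarithmic above, with 1 symbol per library and gene identifiers with names where given. In every gene TI replicate 1 is lowest, and TI replicate 2 lies between it and both FI libraries.

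Lists of genes by function held few of the members with a name or description. The lists were matched only to genes in the study's table of differential genes, most of which the paper reports as higher in TI. Only 23 members stand in that table. The list of floral MADS-box and YABBY genes held 1 member of its 9 annotated genes with FPKM, that of transcription factors 1 of 97, that of transporters 1 of 50 and that of receptor kinases and peptide signals 0 of 77. The 3 members found under seed storage proteins, csu337, Zm00001d027290 and mde1, entered it through wording in their descriptions and are not known storage proteins. Since only 19 members carry a name or description, these counts say little about the 205 as a whole.

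The level in TI replicate 2 was nearly a fixed share of the level in FI replicate 2. Over the 205 genes it was 48.6% of FI replicate 2 at the median, with quartiles of 44.5% and 52.3% and a range of 12.3% to 68.3%. Against FI replicate 1 the median was 42.9%, with quartiles of 36.1% and 53.4% and a range of 9.11% to 93.4%. The share was between 40% and 60% in 179 genes against FI replicate 2 and in 99 genes against FI replicate 1. The coefficient of variation over genes was 15.3% against FI replicate 2 and 31.0% against FI replicate 1. In the 64 genes with TI replicate 1 above 5% and up to 10% of the lower FI value, it was 13.2% and 22.7%. In all 3817 other genes with at least 20 FPKM in both FI libraries it was 43.9% and 40.7%. The closer match to FI replicate 2 was thus not particular to the 205 genes.

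The spread was also set against counting error. The 95% interval of each share, exact (Clopper-Pearson) and from the fragments of both libraries, held the median share in 189 of 205 genes for FI replicate 2 and in 113 of 205 genes for FI replicate 1. Neither these counts nor those of shares between 40% and 60% were worked out for other genes. These intervals cover counting error only, and fragment numbers may be too small by a common factor, which can only make the intervals too wide. Across the 205 genes, log2 FPKM in TI replicate 2 had a Pearson r of 0.97 with FI replicate 2 and of 0.90 with FI replicate 1, while the FI libraries had an r of 0.94 with each other. Genes are not independent replicates, and each r rests on 1 pair of libraries.

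**Figure D3:**
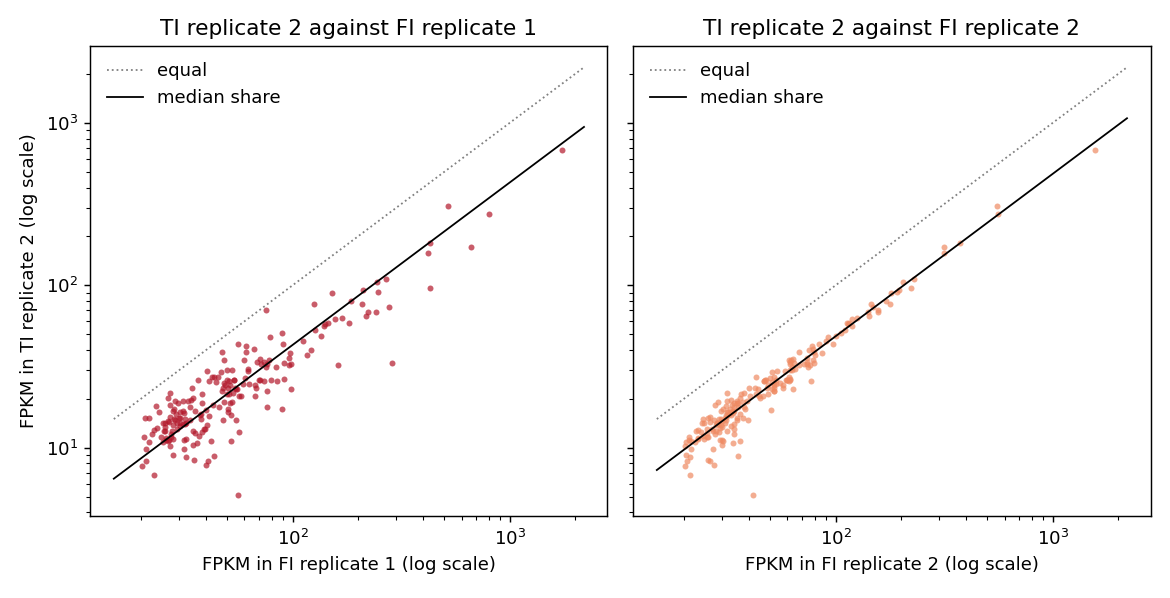
FPKM of the 205 FI-high genes in TI replicate 2 (vertical) against FI replicate 1 (left panel) and FI replicate 2 (right panel), on log axes, with a dotted line at equal values and a solid line at the median share, 42.9% on the left and 48.6% on the right. The points are more tightly placed about the line for FI replicate 2.

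Genes that differed more than 2-fold between the FI libraries were also examined. They were picked by the ratio of FI replicate 1 to FI replicate 2. At a given share of FI replicate 2, that ratio fixes the share of FI replicate 1. The gap between both shares was therefore set by the choice of genes and is no added evidence of a closer match. Only the share of FI replicate 2 was left free. In the 6 genes more than 2-fold higher in FI replicate 1, TI replicate 2 was at 11.5% to 25.9% of FI replicate 1 but at 41.8% to 54.7% of FI replicate 2. One of them, Zm00001d002193, had 161 FPKM in FI replicate 1 and 67.9 FPKM in FI replicate 2, against 0.401 FPKM in TI replicate 1 and 32.2 FPKM in TI replicate 2. Zm00001d024000, the 1 gene more than 2-fold lower in FI replicate 1, had 75.6 and 156 FPKM in FI, against 0.385 and 70.7 FPKM in TI. Its level in TI replicate 2 was 93.4% of FI replicate 1 and 45.3% of FI replicate 2, so genes shifted in opposite directions between the FI libraries had like shares of FI replicate 2.

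The share varied little with the level of a gene or with its value in TI replicate 1. Its median was 48.4% of FI replicate 2 for genes at 100 FPKM or more in FI, 46.6% from 50 to 100 and 49.4% under 50. It was 47.7% in the 46 genes at 0 in TI replicate 1 and 48.8% in the 159 genes above 0. The rule held TI replicate 1 to at most 5% of the lower FI value, so these groups span a narrow range. Genes beyond that range had higher medians. The 64 genes that just missed the rule, with TI replicate 1 above 5% and up to 10% of the lower FI value, had a median of 52.3%. Among all 3817 other genes with at least 20 FPKM in both FI libraries the median was 99.0%, with quartiles of 81.8% and 117%.

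**Figure D4:**
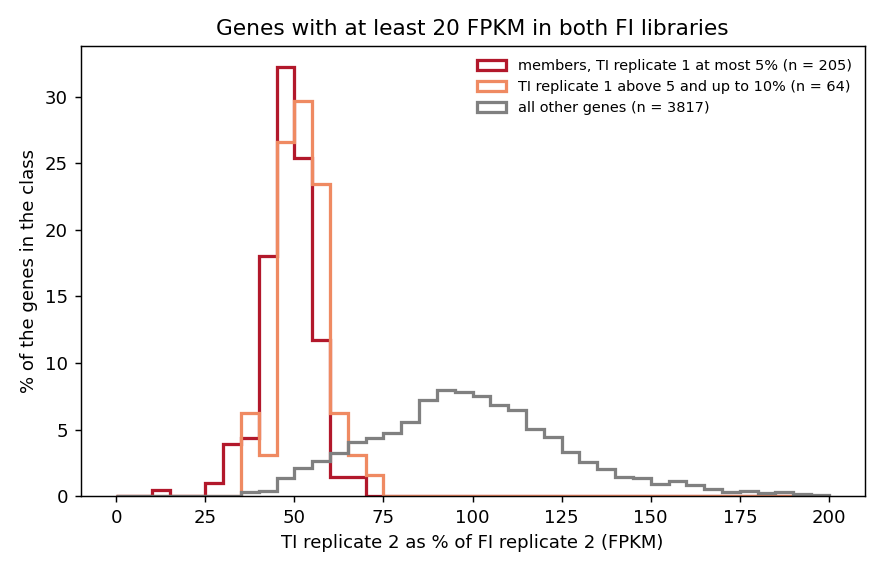
Level in TI replicate 2 as a percentage of FI replicate 2 for genes with at least 20 FPKM in both FI libraries, as the percentage of genes in each class per bin, with the 205 FI-high genes, the 64 genes just outside the rule and all 3817 other genes, which include those 64. The FI-high genes lie about 48.6% and the other genes about 99.0%, and 84 other genes at 200% or more are not drawn.

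In all, the counting interval of 16 genes did not hold the common share of 48.6%. Among so many intervals some miss a common share by counting error alone. How many of the 16 are such misses was not tested. Being among the 16 therefore does not by itself show that a gene departs from the common share. The interval was below 48.6% in 9 genes, among them Zm00001d043049, where TI replicate 2 was at 43.6% of FI replicate 2 (41.2% to 46.2%), Zm00001d034663 at 33.7% (26.7% to 42.2%) and Zm00001d008359 at 25.3% (12.03% to 48.5%). It was above in 7 genes, among them Zm00001d012578 at 68.3% (53.0% to 87.4%) and Zm00001d023345 at 56.0% (52.1% to 60.1%). The highest share of the mean of both FI libraries was that of Zm00001d018261, with 47.3 and 67.6 FPKM in FI, against 0.140 and 38.8 FPKM in TI.

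csu337 had the lowest share of all, 12.3% of FI replicate 2 (3.85% to 30.3%), which rested on 5 fragments in TI replicate 2. The count table did not show this. There csu337 had 625 and 428 counts in FI, against 2 and 131 counts in TI, and its CPM in TI replicate 2 was 43.6% of FI replicate 2. With 131 counts there against 5 fragments behind the FPKM, its link to the count table may be doubtful. For expa3 the share was low in both tables, 31.4% in FPKM and 4.74% in CPM, the CPM resting on 35 and 30 counts in FI, against 0 and 1 count in TI. The low share was thus seen in both tables for expa3 and in FPKM only for csu337.

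There were 4 pairs of FI-high genes with consecutive identifiers in adjacent places of the table. In one pair, Zm00001d023344 had 61.2 and 77.5 FPKM in FI, against 0.306 and 42.4 FPKM in TI, while its neighbour Zm00001d023345 had the values given above. Both were higher in FI replicate 2. Whether neighbouring genes share reads as copies of each other could not be examined.

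At the edges of the rule the values were close. Just inside the limit of 5% were Zm00001d025623 at 4.93% and Zm00001d006103 at 4.90% of the lower FI value in TI replicate 1, and just outside were Zm00001d008909 at 5.02% and Zm00001d048117 at 5.05%. Just inside the minimum of 20 FPKM were Zm00001d034863 with 20.2 FPKM and Zm00001d021535 with 20.3 FPKM in the lower FI library, and just outside were Zm00001d033683 and Zm00001d029970, with 19.7 and 19.6 FPKM.

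The comparison of FI with TI over all genes in FPKM called none of the FI-high genes. On log2(FPKM + 1), limma with Benjamini-Hochberg adjustment over 19531 genes, those averaging at least 1 FPKM, called 0 of the 205 at an FDR under 0.05 and a log2 fold change (log2FC) over 2, where 0% of all genes passed. With an unadjusted p under 0.05 in its place, 31 of the 205 passed, beside 1.42% of all genes. The log2FC ranged from 2.18 to 4.93 with a median of 3.01, beside 0.06 over all genes. The rule used this contrast, so neither the counts nor the fold changes are evidence about the 205 genes. Without TI replicate 2 the same fit called 205 of 205, beside 7.85% of all genes, and without TI replicate 1 it called 2, beside 0.0205%. The first of these fits uses the same 3 libraries as the rule, so its count was nearly fixed by the choice of genes. With 1 TI library left, the spread in both fits comes from the FI pair, and the lone TI library is assumed to vary like it.

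In that fit Zm00001d043049 had a log2FC of 4.85 (SE 2.37) and csu337 one of 4.32 (SE 0.90). The SE takes in the gap between TI replicate 1 and TI replicate 2, which were far apart in every member. For 1 gene on its own, an exact permutation test (two-sided) of 2 against 2 libraries has 0.33 as its smallest possible p.

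Of the 23 members in the study's table, 20 have a version 3 identifier in the count table, and 17 of these had enough counts to be tested. Of the 17, edgeR's quasi-likelihood method called 0, beside 0% of 15479 genes tested, and 3 at an unadjusted p under 0.05, beside 1.75%. DESeq2 called 0 of the 17, beside 0.0581%, and the exact test of edgeR 6, beside 1.27%. Both the rule and the study's table chose these 17 genes on this contrast in the same libraries. The number called is therefore not evidence about them. At 5 counts or fewer in TI replicate 1 were 18 of the 20 genes. In 18 of the 20, TI replicate 2 lay below both FI libraries in CPM. The exceptions were Zm00001d027290 and Zm00001d034863. The first had 9 and 14 counts in FI, against 0 and 6 counts in TI. The second had 1 and 1 count in FI, against 0 and 1 count in TI. For Zm00001d027290 these few counts stand beside a high FPKM in FI, so its link to the count table is doubtful too.

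The same rule was then applied to CPM in the count table, a choice made after the values were seen, to describe FI-high genes that carry names. It found 365 version 3 genes among 8137 with at least 20 CPM in both FI libraries. These come from the same 4 libraries and are no independent set. Of the 12 linked members that reached 20 CPM in both FI libraries, 11 were among them. Summed CPM of the 365 was 39550 and 36435 in FI, against 502 in TI replicate 1 and 17858 in TI replicate 2, and 147 genes had 0 counts in TI replicate 1. The median share of TI replicate 2 in FI replicate 2 was 48.7%, with quartiles of 41.7% and 57.4% and a range of 12.1% to 99.4%. Its coefficient of variation over genes was 26.7%, against 15.3% for the FI-high genes in FPKM, so the share was less even here. Against FI replicate 1 the share ran up to 135%, so TI replicate 2 was not below both FI libraries in all 365 genes. With TI replicate 2 in the rule 0 genes were found.

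Of the 365 genes, 277 have an entry in RefSeq's gene table, and 41 with a telling alias were grouped by role after their values were seen. How many genes of each role the whole count table holds was not worked out. The group sizes are therefore not read as few or many. Among MADS-box genes there were 10. The gene with the aliases zmm8 and zmm14 had 632 and 396 counts in FI, against 2 and 116 counts in TI. ZAG1, a maize homologue of AGAMOUS, the Arabidopsis gene of stamen and carpel identity, had 228 and 121 counts in FI, against 2 and 42 counts in TI. bde1 (ZAG3), needed for normal floral meristems in the ear, had 143 and 131 counts in FI, against 0 and 48 counts in TI. The share of TI replicate 2 in FI replicate 2 ran from 41.7% to 52.2% over the 10 genes.

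A list of floral MADS-box and YABBY genes, taken whole, gave a fuller view. Of its 15 genes in the count table, 10 had at least 20 CPM in both FI libraries and 7 of those met the rule. The other 3 had 21 to 62 counts in TI replicate 1, among them zap1 (GRMZM2G148693), with 250 and 239 counts in FI, against 62 and 104 counts in TI. Floral genes were thus not alike in their level in TI replicate 1.

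Other regulators numbered 7. gt1, a homeodomain gene that holds back buds and floral organs in maize, had 105 and 86 counts in FI, against 0 and 24 counts in TI. The YABBY gene yabby15 had 81 and 87 counts in FI, against 0 and 28 counts in TI. rs2, a MYB gene that keeps meristem genes silent in maize leaves, had 53 and 55 counts in FI, against 0 and 18 counts in TI. The 3 genes were at 0 in TI replicate 1, which at its depth allows up to 3 counts, a limit for counting error only.

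A group of 10 genes belonged to chromatin and DNA synthesis, processes of dividing cells. A gene of the large subunit of ribonucleotide reductase, RNRL1, which makes the building blocks of DNA, had 318 and 83 counts in FI, against 0 and 29 counts in TI. The small subunit gene RNRS3 had 251 and 133 counts in FI, against 4 and 43 counts in TI. A histone gene, his2a1, had 430 and 246 counts in FI, against 8 and 106 counts in TI. RNRL1 was the most uneven between the FI libraries of these 3, and its TI replicate 2 value was 49.7% of FI replicate 2 in CPM. Over the 10 genes this share ran from 21.3% to 79.1%.

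For the cell wall and surface, 9 genes were found. The highest was LTP3, a lipid transfer protein gene, with 3107 and 2221 counts in FI, against 3 and 704 counts in TI. The beta-expansin gene expB3 had 305 and 188 counts in FI, against 0 and 90 counts in TI. The cellulose synthase-like gene CSLD1 had 125 and 78 counts in FI, against 0 and 32 counts in TI. All 9 had 3 counts or fewer in TI replicate 1.

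Among sugar genes, ivr2, a soluble acid invertase that splits sucrose in sink organs, had 2430 and 1403 counts in FI, against 1 and 531 counts in TI. The beta-amylase gene BMY1 had 182 and 180 counts in FI, against 5 and 53 counts in TI. Transport genes included PIN10a, an auxin efflux carrier, with 146 and 91 counts in FI, against 2 and 34 counts in TI. In each of these 3 genes TI replicate 2 held many times the counts of TI replicate 1 at a lower depth.

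**Figure D5:**
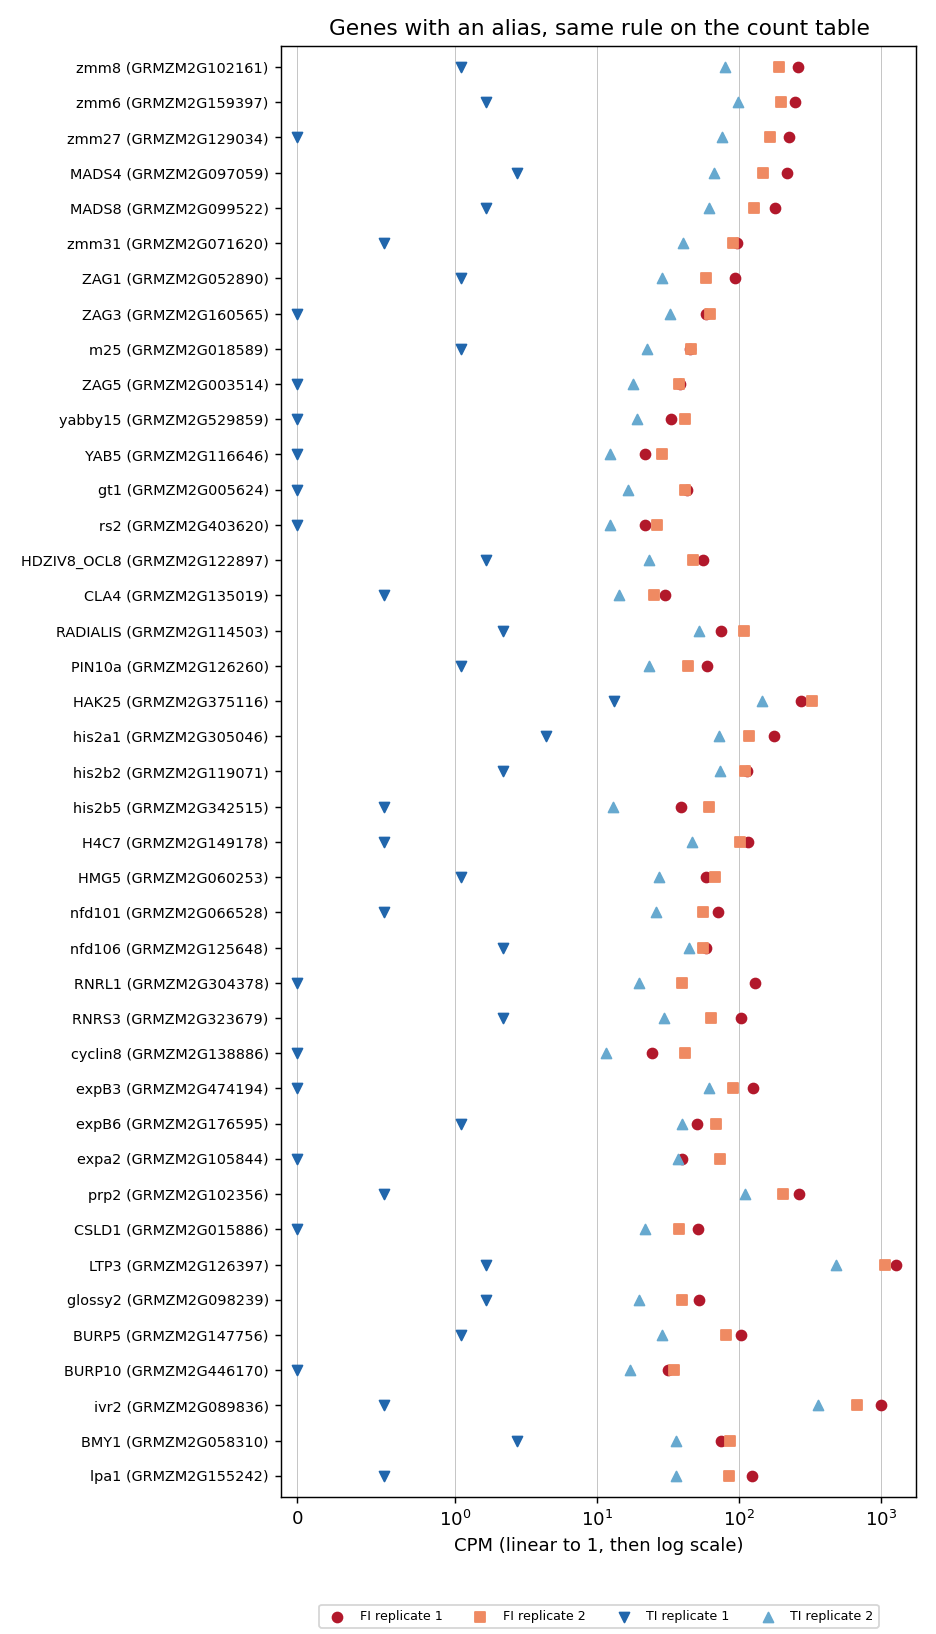
CPM of 41 genes of the count table that met the same rule and have an alias in RefSeq, on an axis that is linear up to 1 and logarithmic above, with 1 symbol per library. TI replicate 1 is lowest throughout and TI replicate 2 lies below both FI libraries.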

How the data were processed

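RNA of FI and TI was sequenced as paired-end reads, which the authors cleaned with Trimmomatic and aligned with TopHat. The deposited counts are raw reads per transcript under version 3 names, although the methods name B73 RefGen_v4, and the submitters' processing notes name B73 RefGen_v3; transcripts were summed per gene. The deposited FPKM values come from CLC Genomics Workbench, as run by the authors, per version 4 gene. Count columns named floral stem were taken as FI, the only other tissue. The authors' fold changes and FDR were not used.

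Genes with at least 20 FPKM in both FI libraries and TI replicate 1 at most 0.05 of the lower were chosen; the members and lists were chosen with earlier results of these data known. Fragments were recovered as the smallest whole numbers in the ratio of a gene's FPKM values, corrected for relative depth, for all 205. FPKM was tested as log2(FPKM + 1) with limma 3.58.1 (mean FPKM of at least 1), which understates changes of low genes, and counts with edgeR 4.0.16 (filterByExpr, minimum count 10, TMM, quasi-likelihood), its exact test and DESeq2 1.42.0, in R 4.3.3. Named genes were the 10 highest members, the 5 lowest and 5 highest by share of TI replicate 2 in the FI mean, the members of lists with at least 3 members, those with a gene name in the study's table and those beside a threshold; other members named and the alias genes were chosen after their values were seen. Names came from the study's table and, for version 3 genes, the RefSeq table of assembly NAM-5.0, of which no coordinates were used. Sequences are not printed here. Alternatives covered the rule's limits, pseudocounts, filters, normalizations, a replicate block and each library left out.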

Additional observations from a re-analysis of the deposited data

How the results depend on the processing

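The number of FI-high genes was 377 with a minimum of 10 FPKM, 74 with 50 FPKM and 365 on CPM of the count table, and 0 with TI replicate 2 in place of TI replicate 1 or with both TI libraries. It was 219 and 255 without each FI library in turn, 143 with a limit of 0.02 and 269 with 0.1. The median level in TI replicate 2, 45.2% of the FI mean, stayed between 42.9% and 48.6% under its 7 alternatives. Counts of genes called higher in FI, 0 with edgeR's quasi-likelihood test, were 9 with DESeq2, 196 with the exact test and 56 without a filter, and 0 to 1725 with a library left out, 1725 without TI replicate 2 and 26 without TI replicate 1. With limma on FPKM they were 0, and 0 to 1541 with a library left out, 1541 without TI replicate 2 and 4 without TI replicate 1. The median log2FC of the 30 named members, 3.30, was 1.28 to 5.10 with a library left out, lowest without TI replicate 1. No named member changed sign in its 7 alternatives. Same-numbered libraries deviated together weakly (correlation 0.174 in FPKM, 0.159 in counts), over 2 pairs only, so the numbers were not taken as pairs; with a replicate block 0 genes were called in either table and the median log2FC was 3.30. Causes were not tested. Depth leaves 118 members with 3 fragments or fewer in TI replicate 1.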
